A study of Rattus norvegicus with 4 samples.

Results

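Genes of glycolysis, glycogen and lactate transport were followed through 3 RNA preparations of astrocyte cultures. The 41 genes were listed by name, and a probe belonged to a gene when its name in the scanner files, or the RefSeq transcript it was designed on, was that of the gene. Of the 41, 39 had a probe by this rule (51 probes), and Gys1 and Pgd had none. The probes of Slc2a3, Hk2, Pdk4 and Gpd1 were too dim for a test, which left 35 genes with 45 probes among 21361 genes tested.

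Astrocytes were primary cultures from the cortex of Wistar rat pups at postnatal day 1, and the neurons plated on them came from the hippocampus of mouse embryos at embryonic day 18, so that mouse mRNA was read by rat probes. The groups were the co-culture without further treatment (CC), the co-culture from which neurons had been washed off by jets of cold saline, a step called cold jet (CC-CJ), and astrocytes cultured without neurons and given the same cold jet (AA-CJ). The RNA was pooled from several animals. All 4 arrays held Cy3-labelled CC-CJ, against Cy5-labelled AA-CJ on 2 arrays and against Cy5-labelled CC on the other two. Without a dye swap, a dye effect and a difference between groups cannot be told apart in M. The other groups shared the dye Cy5. M is log2 of CC-CJ over the other RNA, and array 1 and array 2 carry the replicate numbers of the labels. The p-values rest on the spread between the arrays of a pair, pooled over both pairs and drawn toward that of all genes. CC versus AA-CJ uses both pairs. The 2 arrays per pair limit the precision.

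Glucose enters brain cells through transporters of the Slc2a family, is phosphorylated by hexokinase and is broken down to pyruvate in the glycolytic chain. Lactate dehydrogenase interconverts pyruvate and lactate, and the monocarboxylate transporters of the Slc16a family carry lactate across the membrane. In the brain, astrocytes are known for storing glycogen and for exporting lactate, and several steps have isoforms that are typical of neurons or of astrocytes, such as Eno2 (neuron-specific enolase) and Aldoc (the brain aldolase, abundant in astrocytes).

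Promoters are shown for both subunits of lactate dehydrogenase, whose contrast is followed further on, and for Aldoc. They are the 120 bases before the start of the gene, from RefSeq on GRCr8, on the strand of the gene, with each match to ACGTG on either strand in capitals. These letters are the core of the sites for the hypoxia-inducible factors. The stretch for Ldha is chr1:106507972-106508091 (+ strand), that for Ldhb is chr4:177177409-177177528 (- strand) and that for Aldoc is chr10:63715424-63715543 (+ strand).
Ldha: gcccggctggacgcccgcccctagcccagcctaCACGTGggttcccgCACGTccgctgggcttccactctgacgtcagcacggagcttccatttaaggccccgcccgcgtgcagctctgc
Ldhb: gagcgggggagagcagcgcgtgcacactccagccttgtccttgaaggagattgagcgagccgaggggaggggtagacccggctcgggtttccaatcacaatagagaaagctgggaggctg
Aldoc: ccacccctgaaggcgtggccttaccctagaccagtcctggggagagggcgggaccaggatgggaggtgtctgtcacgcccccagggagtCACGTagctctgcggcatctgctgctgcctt
Ldha holds overlapping and separate matches in this stretch, Aldoc holds 1 and Ldhb holds none. A single promoter was found for 35 of the 41 listed genes, and these are not the 35 tested genes. They include the untested Hk2, Pdk4, Gys1 and Pgd and lack the tested Hk1, Aldoa, Pgk1 and Eno1. Over the 250 bases before the start, 18 of these 35 listed genes held ACGTG (51.4%). The share was 16.6% of all 33469 promoters and 22.7% of the 6547 tested genes with a single promoter. CACGTG, which contains ACGTG, was found in 5 of these listed genes (14.3%) in 5.59% of all promoters and in 8.43% of those of the tested genes. The median GC content was 60.4% in the listed genes, 51.2% in all promoters and 60.0% in the tested genes. A match of letters is a description of the window and not a binding site.

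Most of the genes were expressed in every preparation. Of the 39 genes with a probe, 34 were well above background in all 8 readings, which are the Cy3 and Cy5 channels of the 4 arrays. Ppp1r3c, which targets a phosphatase to glycogen, was well above background in both AA-CJ readings, in both CC readings and in 1 CC-CJ reading of each comparison. Hk2, a hexokinase typical of muscle, and Pdk4, a kinase that inhibits pyruvate dehydrogenase, were not well above background in any of the 8 readings. Slc2a3, the neuronal glucose transporter, was above it in 1 CC-CJ and 1 CC reading, and Gpd1, the cytosolic glycerol-3-phosphate dehydrogenase, in 1 CC reading. The probes of the 35 tested genes were bright, with 22 of them (62.9%) in the brightest of 4 equal classes of all genes tested. The 4 readings of CC-CJ of a gene spanned 0.144 on the log2 scale at the median, from 0.0626 (Taldo1) to 0.336 (Eno1).

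With M normalized by loess, none of the 35 genes was called in any comparison at an adjusted p of 0.05 in limma. With each array centred on its median alone, 30 of 35 were called lower in each comparison with CC-CJ. Of the 21361 genes tested, 13234 were then called in CC-CJ versus AA-CJ and 14330 in CC-CJ versus CC. The values that follow are those under loess. In CC-CJ versus AA-CJ, which asks what contact with neurons changed in astrocytes, 0 of 35 were called, where 3.10% of all genes tested were. In CC-CJ versus CC, which shows what the cold jet removed, 0 of 35 were called against 2.36% of all genes, and in CC versus AA-CJ 0 of 35 against 2.66%. At an unadjusted p under 0.05, 5 of 35 (14.3%) passed in each comparison, where 22.6% of all genes did in CC-CJ versus AA-CJ, 16.9% in CC-CJ versus CC and 17.8% in CC versus AA-CJ. By the part of the methods' criteria that asks for a value beyond 2 SD of the mean of all probes on both arrays, without their rules on replicate probes and left-over neuronal RNA, 0 of 35 genes were selected in CC-CJ versus AA-CJ and 0 of 35 in CC-CJ versus CC, against 2.56% and 2.27% of all genes. A p that misses the threshold does not show that levels were equal, and the intervals say how far apart they could be under this processing.

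Under loess, the differences were small in all 3 comparisons. In CC-CJ versus AA-CJ, M ran from -0.30 (Tkt) to 0.39 (Aldoa) with a median of -0.01, where the median of all genes was -0.02. In CC-CJ versus CC it ran from -0.39 (Tkt) to 0.29 (Pkm2) with a median of 0.04, where that of all genes was -0.02. The log2 difference of CC and AA-CJ ran from -0.37 (Slc2a1) to 0.43 (Pfkl) with a median of -0.05, where that of all genes was 0.00. The median size of the difference, without its sign, was 0.147, 0.12 and 0.105 in these comparisons, against 0.119, 0.105 and 0.151 over all genes. All 35 genes had a 95% interval that lay within a doubling or halving in each comparison, and 31, 33 and 23 of them had one within 0.5 on the log2 scale.

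**Figure D1:**
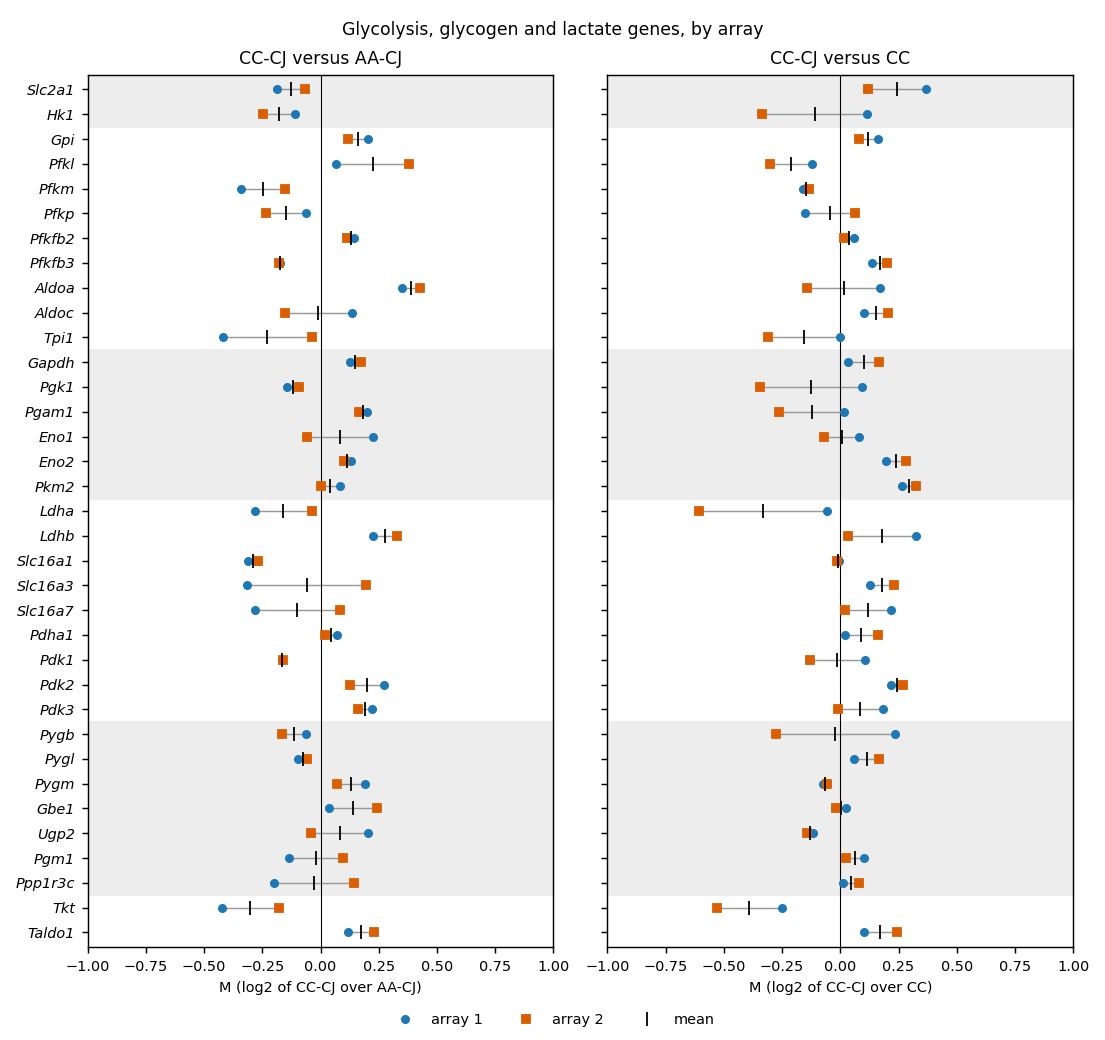
M of the 35 tested genes on each array (x axis, log2 of CC-CJ over AA-CJ at left and over CC at right), with a circle for array 1, a square for array 2 and a bar for their mean, and grey bands that separate steps of the pathway. The means lie between -0.39 and 0.39, and the arrays of a comparison fall on opposite sides of 0 for several genes.

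Among genes of glucose uptake, Slc2a1, the glucose transporter of glia and of brain vessels, had an M of -0.19 and -0.07 against AA-CJ and of 0.37 and 0.12 against CC. The arrays of each comparison lay on the same side of 0. Its difference of CC and AA-CJ was -0.37 ± 0.13 (SE, n = 2 arrays in each of both pairs), with a 95% interval of -0.69 to -0.05 and a limma adjusted p of 0.225. On the log2 scale of the level, its readings were 11.97 and 12.23 in CC and 12.60 and 12.45 in AA-CJ, so that the readings of these groups did not overlap. With 2 readings per group, this can arise without a true difference. Its share over all genes tested was not counted, here or for the genes below. Hk1, the hexokinase of brain, had an M of -0.11 and -0.25 against AA-CJ and of 0.11 and -0.33 against CC. Its 2 probes, for which the files give no position, differed on array 1 against AA-CJ (0.03 and -0.24) and on array 2 (-0.53 and 0.04). For Slc2a3 and Hk2, the other members of these pairs, the probes were too dim, and no fold is given.

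In upper glycolysis, the largest M against AA-CJ was that of Aldoa, the aldolase of most tissues (probe at chr1:185972062-185972121 of rn4). It was 0.35 and 0.43 on the arrays against AA-CJ, so that CC-CJ was 1.31-fold higher, with a 95% interval of 1.11 to 1.54-fold. The adjusted p of 0.0857 in limma missed the threshold, and it was 0.0488 in a fit that crossed the replicate numbers, which was chosen after seeing the data. Against CC, its M was 0.17 and -0.14, on either side of 0. Its log2 level was 13.41, 13.29, 13.40 and 13.30 in the CC-CJ readings, 13.07 and 12.86 in AA-CJ and 13.24 and 13.44 in CC. All CC-CJ and CC readings were above those of AA-CJ. Aldoc (chr10:64309086-64309145 of rn4) had an M of 0.13 and -0.15 against AA-CJ and of 0.10 and 0.20 against CC, with levels of 13.77 and 13.71 in CC and 13.75 and 13.99 in AA-CJ. The contrast of both aldolases, M of Aldoa minus M of Aldoc, was 0.21 and 0.58 against AA-CJ and 0.07 and -0.34 against CC. Between CC and AA-CJ, both in Cy5, it was 0.53. It was given no test.

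The genes of phosphofructokinase, the main control point of glycolysis, and of the enzymes that make and degrade its activator had no common direction. Pfkl, the liver type, Pfkm, the muscle type, and Pfkfb3 are named because their values stood out after they were seen. Pfkl had an M of 0.07 and 0.38 against AA-CJ and of -0.12 and -0.30 against CC. Its level was 8.49 and 8.77 in CC and 8.35 and 8.08 in AA-CJ, and the difference of 0.43 ± 0.15 was the highest of the list in that comparison (95% interval 0.08 to 0.79, limma adjusted p of 0.201). Pfkm had an M of -0.34 and -0.15 against AA-CJ and of -0.16 and -0.13 against CC, below 0 on all 4 arrays, where CC-CJ was in Cy3. Between CC and AA-CJ, both in Cy5, Pfkm differed by -0.10 ± 0.12. Pfkfb3 differed by -0.34 ± 0.11 between CC and AA-CJ, with levels of 7.14 and 7.08 in CC and 7.55 and 7.52 in AA-CJ. Its limma adjusted p of 0.187 was the smallest of the list in that comparison. Over 15 alternatives in the processing, the difference of Pfkfb3 ran from -0.75 to -0.31, and it passed in none. Pfkp, the platelet type, had an M of -0.06 and -0.23 against AA-CJ and of -0.15 and 0.06 against CC. In upper glycolysis, Gpi, Pfkp, Pfkfb2 and Tpi1 had a difference of CC and AA-CJ between -0.10 (Pfkp) and 0.09 (Pfkfb2). Tpi1 had arrays far apart, with an M of -0.42 and -0.04 against AA-CJ.

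Enolase was of interest because Eno2 is used as a neuronal marker. Eno2 (chr4:160890338-160890397 of rn4) had an M of 0.13 and 0.10 against AA-CJ and of 0.20 and 0.28 against CC. CC-CJ was thus above CC on both arrays, by 1.18-fold (95% interval 1.03 to 1.35), with a limma adjusted p of 0.213. Its level was 12.11 and 11.99 in CC, and it was 12.27 and 12.19 in AA-CJ, which has no plated neurons. Its difference of CC and AA-CJ was -0.12 ± 0.11 with a 95% interval of -0.40 to 0.15. This interval allows CC to be at most 1.11-fold higher. On the same arrays, 9 of 14 neuronal markers fell in CC-CJ versus CC, with a median M of -1.70, and 8 of 14 were higher in CC than in AA-CJ, with a median of 1.81. In CC-CJ versus AA-CJ, 5 of 14 rose (Gap43, L1cam, Dcx, Mapt and Elavl4), from 0.57 (Elavl4) to 2.03 (Gap43), with a median of 0.10 over the 14. The summed level of the 14 on a linear scale was 20770 and 21920 in CC, 8949 and 9429 in AA-CJ, and between 8460 and 8937 in the CC-CJ readings. Among them, Snap25, Dcx and Elavl4 were not well above background in AA-CJ. Fewer neurons and less RNA per neuron cannot be told apart in such bulk RNA, and how well the Eno2 probe reads mouse mRNA was not tested. Eno1, the enolase of most tissues, had an M of 0.22 and -0.06 against AA-CJ and of 0.08 and -0.07 against CC. Its 2 probes had means of -0.07 and 0.23 against AA-CJ.

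The remaining genes of lower glycolysis had values on both sides of 0. Pkm2, a pyruvate kinase, chosen for its value after it was seen, had an M of 0.08 and 0.00 against AA-CJ and of 0.26 and 0.32 against CC, the latter the highest of the list (1.23-fold, 95% interval 1.07 to 1.40, limma adjusted p of 0.145). Gapdh, which is often used as a reference gene, had an M of 0.12 and 0.17 against AA-CJ and of 0.03 and 0.16 against CC, and its difference of CC and AA-CJ was 0.05 ± 0.12. Pgk1 had an M of -0.14 and -0.09 against AA-CJ and of 0.09 and -0.34 against CC. Pgam1 was read by probes placed on chromosome 10 and on chromosome 6 of rn4, which had means of 0.34 and 0.02 against AA-CJ and of 0.06 and -0.31 against CC. Between CC and AA-CJ, both in Cy5, these probes were at 0.28 and 0.33. The gene was at 0.31 ± 0.13 there (95% interval -0.02 to 0.63, limma adjusted p of 0.303). Which gene each probe reads was not tested, and the value of Pgam1 is therefore uncertain.

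The subunits of lactate dehydrogenase had M of opposite sign. Ldha, the subunit typical of muscle and of cells that make lactate (chr1:97407674-97407733 of rn4), had an M of -0.28 and -0.04 against AA-CJ and of -0.06 and -0.61 against CC. The difference of 0.548 between the CC arrays was the largest between arrays of the list in either of these comparisons. Ldhb, the heart type (chr4:180061921-180063949 of rn4), had an M of 0.22 and 0.33 against AA-CJ and of 0.33 and 0.03 against CC. M of Ldha minus M of Ldhb was -0.51 and -0.36 against AA-CJ and -0.39 and -0.64 against CC, below 0 on all 4 arrays. CC-CJ was read in Cy3 on all of these, so that the dye and the group cannot be told apart here. Between CC and AA-CJ, both in Cy5, the same contrast was 0.08. Neither subunit passed the test, with limma adjusted p-values of 0.546 (Ldha) and 0.165 (Ldhb) against AA-CJ and of 0.295 and 0.407 against CC.

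Slc16a1 (MCT1), a monocarboxylate transporter of astrocytes and vessels (chr2:199880104-199880163 of rn4), had an M of -0.31 and -0.27 against AA-CJ. This was 0.817 of the AA-CJ level (95% interval 0.718 to 0.931), with a limma adjusted p of 0.0940. Against CC its M was -0.01 and -0.01. Its level was 9.56, 9.41, 9.51 and 9.37 in the CC-CJ readings, 9.52 and 9.39 in CC and 9.88 and 9.68 in AA-CJ, so that both AA-CJ readings were above all others. Slc16a3 (MCT4), known in astrocytes for lactate export, had an M of -0.31 and 0.20 against AA-CJ and of 0.13 and 0.23 against CC. Slc16a7 (MCT2), the neuronal type, had an M of -0.28 and 0.08 against AA-CJ and of 0.22 and 0.02 against CC. The arrays against AA-CJ fell on opposite sides of 0 for both of these.

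Pyruvate dehydrogenase, which admits pyruvate to the citric acid cycle, and its inhibiting kinases had no gene that passed the test. Pdha1, its catalytic subunit, had an M of 0.07 and 0.02 against AA-CJ and of 0.02 and 0.16 against CC. Pdk2, named for its value after it was seen, was above 0 on all 4 arrays, with an M of 0.27, 0.13, 0.22 and 0.27 and limma adjusted p-values of 0.222 and 0.226, and its interval against CC was 0.04 to 0.44. CC-CJ was in Cy3 on all 4 arrays, so that dye and group cannot be told apart. Between CC and AA-CJ, both in Cy5, Pdk2 differed by -0.04 ± 0.12. Pdk1 had -0.17 and -0.16 against AA-CJ and 0.10 and -0.13 against CC, and Pdk3 had 0.22 and 0.16 against AA-CJ and 0.18 and -0.01 against CC.

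Of the glycogen phosphorylases, which release glucose units from glycogen, Pygb is the brain type, Pygl the liver type and Pygm the muscle type. Pygb had an M of -0.06 and -0.16 against AA-CJ and of 0.23 and -0.28 against CC. Pygl had -0.10 and -0.06 against AA-CJ and 0.06 and 0.17 against CC. Pygm had 0.19 and 0.07 against AA-CJ and -0.07 and -0.06 against CC. In CC versus AA-CJ, these were -0.09 ± 0.18, -0.19 ± 0.12 and 0.20 ± 0.12. The interval of each included 0. Over 15 alternatives in the processing, the difference of CC and AA-CJ ran from -0.35 to 0.16 for Pygb. It ran from -0.36 to -0.10 for Pygl and from 0.14 to 0.58 for Pygm. Gbe1, the branching enzyme, Ugp2, which makes the sugar donor, Pgm1 and Ppp1r3c had differences of CC and AA-CJ between -0.08 (Pgm1) and 0.21 (Ugp2). The probes of Pgm1 lie on chromosome 14 and on chromosome 5 of rn4, so that its value is uncertain.

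In the pentose phosphate branch, Tkt, a transketolase, chosen for its value after it was seen, was below 0 on all 4 arrays, with an M of -0.42 and -0.18 against AA-CJ and of -0.25 and -0.53 against CC. It had the lowest M of the list in both comparisons (0.812 and 0.763 of the other RNA), with limma adjusted p-values of 0.159 and 0.141. CC and AA-CJ differed by 0.09 ± 0.15. Its probe was the brightest of the list, at 15.50 to 15.58 in CC-CJ, 15.95 and 15.68 in AA-CJ and 15.83 and 16.05 in CC. No spot of Tkt or of the other listed genes was marked saturated in either channel of any array. The lower value of CC-CJ on all 4 arrays was in Cy3, so that dye and group cannot be told apart. Taldo1, the transaldolase, had an M of 0.12 and 0.23 against AA-CJ and of 0.10 and 0.24 against CC.

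**Figure D2:**
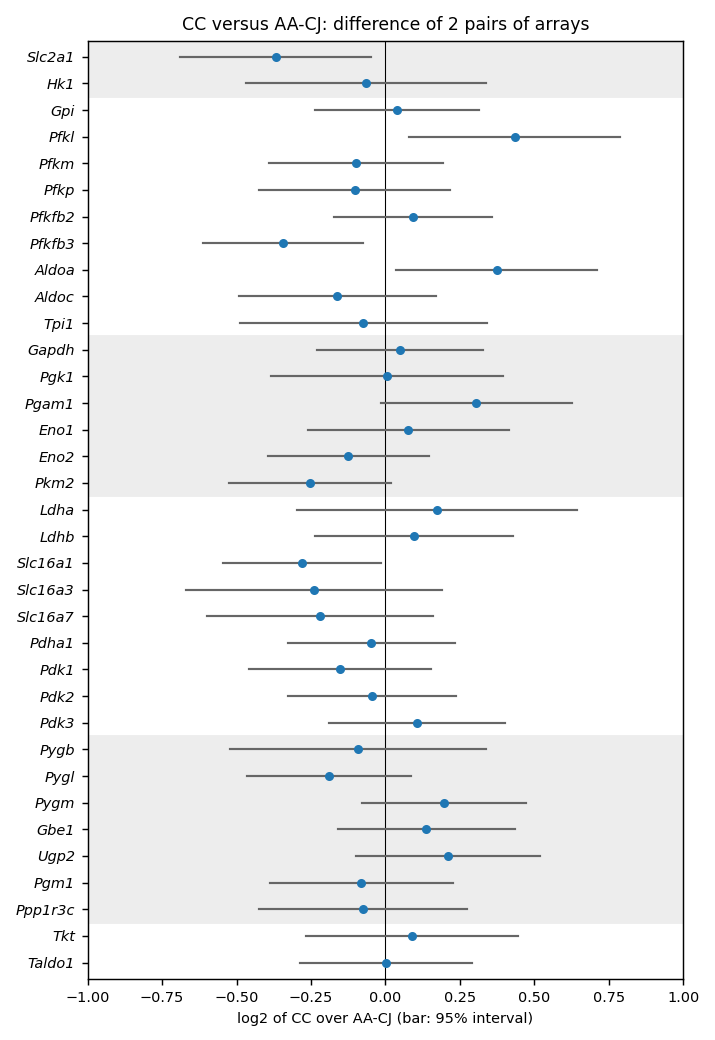
Log2 of CC over AA-CJ for the 35 tested genes (x axis), as the difference of the mean M of both pairs of arrays, with 95% intervals as bars and grey bands for steps of the pathway. The estimates lie between -0.37 (Slc2a1) and 0.43 (Pfkl).

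Other genes of these pathways, taken from lists of related genes, gave 1 call in each comparison among 63 tested (1.59%), where 3.10%, 2.36% and 2.66% of all genes were called. Of 11 further genes of glucose transport and glycolysis tested, Slc2a6, a sugar transporter of lysosomal membranes, fell in CC-CJ versus CC, with an M of -0.75 and -0.65 and a limma adjusted p of 0.00883. Against AA-CJ its M was -0.32 and -0.45 (adjusted p of 0.0618 in limma), so that it was below 0 on all 4 arrays. Between CC and AA-CJ, both in Cy5, Slc2a6 differed by 0.31 ± 0.12 (95% interval 0.02 to 0.60, limma adjusted p of 0.248). Gpd2, the mitochondrial glycerol-3-phosphate dehydrogenase, was higher in CC than in AA-CJ by 0.75 ± 0.14 (limma adjusted p of 0.0448). Of 12 further genes of pyruvate and lactate, Slc16a6 fell in CC-CJ versus AA-CJ, with an M of -0.43 and -0.63 and a limma adjusted p of 0.0366. Against CC its M was -0.51 and -0.40, below 0 as well, and between CC and AA-CJ, both in Cy5, it differed by -0.08 ± 0.13 (limma adjusted p of 0.795). For Slc16a6 and Slc2a6, the low value was that of CC-CJ in Cy3 on every array, so that dye and group cannot be told apart in M. None of 14 further genes of glycogen, 7 of the pentose phosphate pathway and 19 of the hypoxia response passed in any comparison. The median M of the hypoxia genes was -0.11 against AA-CJ, 0.00 against CC and -0.03 for CC versus AA-CJ.

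All 12 astrocyte markers were well above background in all groups, and 1 of them, Aqp4, rose in CC-CJ versus AA-CJ. The summed level of 11 microglial markers was 1438 and 1489 in AA-CJ, 3260 and 3323 in CC and between 1833 and 2253 in the CC-CJ readings. In CC-CJ versus AA-CJ, 3 of 9 microglial markers tested rose (Lyz2, C1qa and Tyrobp), while Cd68 had an M of -0.08 and C1qc of -0.003. Of 3 endothelial markers tested, Kdr rose, with an M of 2.62, and Cdh5 (0.25) and Vwf (-0.03) did not pass. The other 5 of the 8 endothelial markers (Cldn5, Esam, Flt1, Pecam1 and Tek) were not well above background in AA-CJ or in CC-CJ on the same arrays. In CC-CJ versus CC, 5 of 9 microglial markers fell. Mag and Sox10 fell among 9 markers of the oligodendrocyte lineage, and Dcn and Col1a2 among 6 of fibroblasts and mural cells. In CC versus AA-CJ, 5 of 9 microglial markers, Mag, Dcn (0.66) and Kdr (2.67) were higher in CC. Cdh5 (0.10) and Vwf (0.05) did not pass there. The part of these markers in the values of the metabolic genes was not tested.

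**Figure D3:**
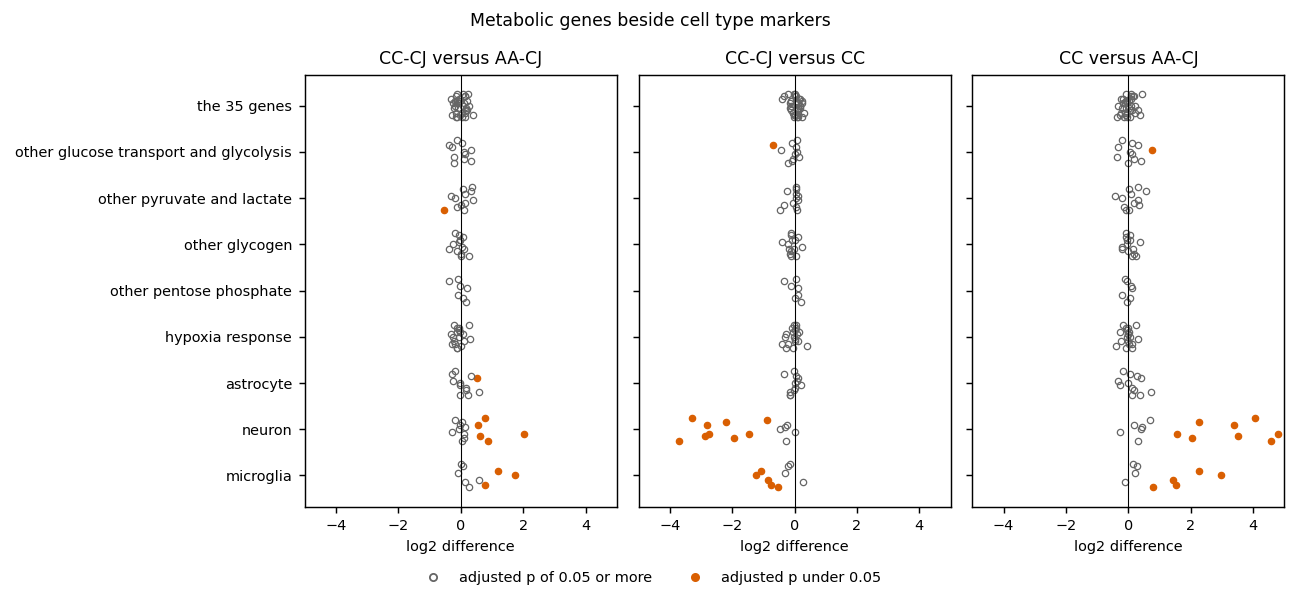
Log2 difference (x axis) of each tested gene in the 3 comparisons, with 1 row for the 35 genes and 1 for each list of related genes or markers, and filled points for an adjusted p under 0.05 in limma. The 35 genes lie near 0 with none filled, and markers of neurons and of microglia reach beyond them.

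The values of the comparisons with CC-CJ depended on how the trend of M with brightness was treated, and whether this trend comes from the dye or from the CC-CJ RNA cannot be told apart. With loess, the median M of all genes was near 0 in each of the 4 classes of brightness, from -0.04 to -0.01. With each array centred on its median alone, the median M in the dimmest class was 0.05 against AA-CJ and 0.10 against CC, and in the brightest class -1.21 and -1.18. That of the 35 genes was then -1.22 and -1.104, and 30 of 35 were called lower in each of these comparisons, where 13234 and 14330 of all genes were called. In CC versus AA-CJ, where both groups are in Cy5, centring gave a median of -0.12 over the 35 genes and called none of them.

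**Figure D4:**
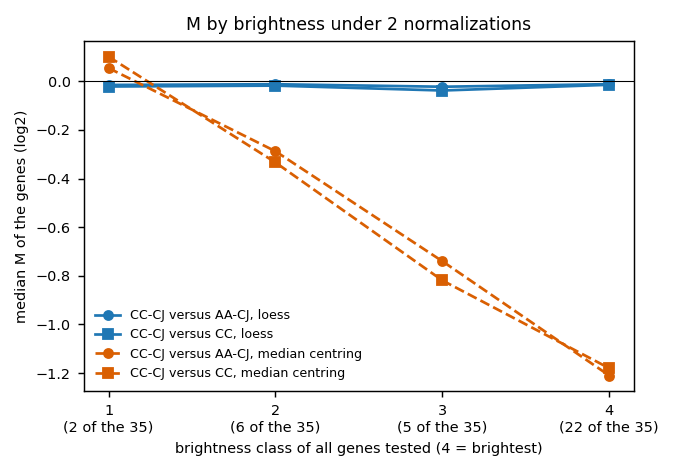
Median M of all genes tested (y axis, log2) by class of spot brightness (x axis, with the number of the 35 genes in each), under loess (solid) and under median centring (dashed), for CC-CJ versus AA-CJ (circles) and CC-CJ versus CC (squares). Under centring the medians fall to -1.21 and -1.18 in the brightest class, which holds 22 of the 35 genes.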

How the data were processed

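The authors deposited Agilent Feature Extraction 9.5.1.1 output for 4 two-colour arrays of 1 slide, with mean and background intensity on a linear scale and a log10 ratio, and a series table of normalized values, taken as log2 ratios. The methods name OLIN and OSLIN, which were not used here. In R 4.3.3 with limma 3.58.1, intensities were corrected by normexp (offset 50), which compresses ratios of dim probes, and M was normalized by loess (span 0.3). Control spots and 121 to 179 outlier spots per array were left out. A probe was kept when both arrays of AA-CJ, both of CC or all 4 of CC-CJ read it well above background (24865 of 41012). Between 50.1% and 62.6% of probes were well above background per channel, and 0 to 4 spots were saturated. A gene is the mean of its kept probes. Levels are log2 intensities after loess and Aquantile. A model with 1 coefficient per pair of arrays was fitted to all 4 arrays (2 residual degrees of freedom, prior 4.71), with Benjamini-Hochberg adjustment over 21361 genes. The members and lists were chosen with earlier results of these data known. Values per array are given for the tested genes of the isoform pairs and, without a rule, for other listed genes. Genes chosen for their values are named as such, except Tpi1, which was noted for the distance between its arrays. The steps were tested on simulated data. The series table was turned to log2 of Cy3 over Cy5, since its values ran against M as computed from the scanner values, and its correlation with M after turning was 0.923 to 0.969 per array across probes. Its scale is not given in the sources used here, and it was taken as log2 because its slope against M was 0.97 to 1.27 per array. Alternatives for background, normalization, source of values, filter, prior and arrays were tried.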

Additional observations from a re-analysis of the deposited data

How the results depend on the processing

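The count of 0 members called held in all 3 comparisons with Agilent's log ratio, the series table, no background subtraction, an offset of 10, both other filters on dim probes, the brightest probe, a prior with a trend, the 2 SD criteria and only the arrays of a comparison, where each applied, and with any 1 array left out (0 to 0), where the array that remains is assumed to vary like the other pair. The exceptions were median centring, with 30 members in CC-CJ versus AA-CJ and 30 in CC-CJ versus CC, and the crossed pairing below. Under median centring, members with an M above 0 after loess turned to called values below 0. In CC-CJ versus AA-CJ these were Aldoa -1.09, Eno1 -1.46, Eno2 -1.26, Gapdh -1.53, Gpi -1.31, Ldhb -1.36, Pdha1 -1.21, Pdk2 -1.15, Pdk3 -0.32, Pfkl -0.57, Pgam1 -1.22, Pkm2 -1.45, Taldo1 -1.28, Ugp2 -0.97. In CC-CJ versus CC they were Aldoa -1.32, Aldoc -1.22, Eno1 -1.35, Eno2 -1.01, Gapdh -1.33, Gbe1 -0.49, Gpi -1.19, Ldhb -1.23, Pdha1 -1.10, Pdk2 -0.998, Pdk3 -0.45, Pfkfb3 -0.27, Pgm1 -0.67, Pkm2 -1.02, Slc16a3 -0.71, Slc2a1 -1.01, Taldo1 -1.13. The median of all genes was then -0.49 and -0.59. The members' median in CC-CJ versus AA-CJ was -0.03 with the brightest probe, 0.00 without background subtraction, 0.02 with probes well above background in all readings and -1.22 with centring, and 0.02 to 0.04 with either of its arrays left out. In CC-CJ versus CC it was -1.104 with centring, and 0.01 to 0.09 with either of its arrays left out. In CC versus AA-CJ, the members' median was -0.05 in the main fit, -0.13 with the series table, -0.12 with centring and -0.09 with Agilent's log ratio. With any 1 array left out it was -0.05 to 0.02 there.

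With the replicate block, 0 members were called in each comparison, and 170, 306 and 294 of all genes were called in CC-CJ versus AA-CJ, CC-CJ versus CC and CC versus AA-CJ, against 662, 504 and 568 without it. Deviations of same-numbered arrays correlated at -0.112 across genes, which are not independent, and the labels do not say that a number marks a shared sample. The same check on levels gave 0.465 for CC-CJ in Cy3 and -0.396 in Cy5, and whether the same CC-CJ samples were used on both pairs of arrays is not given in the sources used here. Crossing the numbers, chosen after seeing the data, called 1 member (Aldoa) in CC-CJ versus AA-CJ, 0 in the other two comparisons, and 1492, 849 and 828 genes in all. The cause was not tested.

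Over all genes, the counts ran from 77 (Agilent's log ratio) to 13234 in CC-CJ versus AA-CJ. The number of arrays limits the precision. For the members, the standard error of M had a median of 0.0915 in the comparisons with CC-CJ and of 0.130 in CC versus AA-CJ.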
